A study of Arabidopsis thaliana with 2 samples.

Results

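Jasmonate synthesis, repression and turnover were examined through 5 *Arabidopsis thaliana* genes: the synthesis genes LOX2 (AT3G45140) and AOC1 (AT3G25760), the repressor genes JAZ8 (AT1G30135) and JAZ10 (AT5G13220), and the turnover gene CYP94B3 (AT3G48520). They were picked by locus from the authors' table of transcripts higher in WRKY75 RNAi plants, which holds 1231 loci, out of 2159 loci listed in either direction. Their direction is therefore a condition of their choice and not a result. Where several transcript models of a locus were listed, the model with the most reads over both libraries was used.

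Leaf messenger RNA was sequenced from 2 libraries. The first came from plants in the Col-0 background that carry WRKY75RNAi, an RNA interference construct against the transcription factor gene WRKY75, and the second from wild-type Col-0. Polyadenylated RNA from the third and the fourth leaves of plants 28 days old was used for both, with 1 library per genotype. No treatment is given for either group, and the sources used here do not say which promoter drives the RNAi construct, how many independent lines were used or how many plants were pooled. The library totals behind the deposited values were 38042482 reads for WRKY75 RNAi and 41328980 reads for Col-0. WRKY75 itself (AT5G13080) had 476 reads in WRKY75 RNAi and 1699 reads in Col-0, which is 30.4% of the Col-0 level after scaling. With 1 library per genotype no difference between genotypes was tested and none has a replicate check. The intervals given are exact 95% intervals (Clopper-Pearson for ratios of reads, Poisson for levels) and cover counting error only. In whole leaves, a change in the share of a cell type and a change of RNA per cell cannot be told apart.

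Jasmonate is a lipid hormone of wounding and insect defence, fertility and leaf ageing. In the chloroplast, a lipoxygenase oxygenates linolenic acid, allene oxide synthase and allene oxide cyclase turn the product into the ring-shaped precursor OPDA, and reduction and shortening in the peroxisome yield jasmonic acid, which is joined to isoleucine as the active hormone JA-Ile. JA-Ile brings JAZ repressors to the receptor COI1 for degradation and so frees MYC2 and related transcription factors, whose targets include genes of synthesis, JAZ genes and genes that inactivate the hormone. Synthesis, repression and turnover are thus linked by feedback, and all 3 steps are represented among the 5 genes.

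The 300 bases before the annotated start of each gene were read from RefSeq assembly TAIR10.1 to show what promoter sequence the genes have or do not have in common. Both strands were searched for the G-box CACGTG, which MYC2 and its relatives bind, for its variant AACGTG, and for the W-box forms TTGACC and TTGACT, the core that WRKY factors bind. The 3 genes with a match are shown 5′ to 3′ along the gene, with matches in capitals. The window of LOX2 lies at chr3:16524945-16525244, that of AOC1 at chr3:9403479-9403778 and that of JAZ8 at chr1:10596052-10596351, all on the plus strand.
LOX2: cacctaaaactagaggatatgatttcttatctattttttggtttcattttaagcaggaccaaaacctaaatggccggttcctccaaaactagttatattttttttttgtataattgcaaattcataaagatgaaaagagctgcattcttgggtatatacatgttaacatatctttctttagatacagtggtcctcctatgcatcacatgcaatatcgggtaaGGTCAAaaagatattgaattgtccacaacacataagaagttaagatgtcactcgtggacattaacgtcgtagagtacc
AOC1: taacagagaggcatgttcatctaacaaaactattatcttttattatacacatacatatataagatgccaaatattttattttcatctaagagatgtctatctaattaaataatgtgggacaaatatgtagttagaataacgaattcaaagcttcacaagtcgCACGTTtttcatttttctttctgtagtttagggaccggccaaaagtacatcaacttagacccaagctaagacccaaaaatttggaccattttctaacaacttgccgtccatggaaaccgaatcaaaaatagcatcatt
JAZ8: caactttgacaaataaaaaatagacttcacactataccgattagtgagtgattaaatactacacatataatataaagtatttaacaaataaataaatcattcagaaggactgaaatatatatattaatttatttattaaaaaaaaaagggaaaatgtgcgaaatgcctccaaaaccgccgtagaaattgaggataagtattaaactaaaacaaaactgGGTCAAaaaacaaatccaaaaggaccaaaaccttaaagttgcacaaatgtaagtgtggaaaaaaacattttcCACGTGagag
LOX2 had 1 W-box (TTGACC, read as GGTCAA on the strand shown), 78 to 73 bases before the start. AOC1 had 1 G-box variant, read as CACGTT, 138 to 133 bases before it. JAZ8 had 1 G-box, 10 to 5 bases before it, and 1 W-box, 82 to 77 bases before it. None of the 4 motifs was found in the same window of JAZ10 or CYP94B3, so no motif was shared by all 5. Among 27443 windows of equal length before protein-coding genes, 7.09% held CACGTG, 8.71% held AACGTG, 14.01% held TTGACC and 21.9% held TTGACT. The motifs do not overlap one another in these windows. These matches describe the letters in the window and were not measured as binding sites.

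The synthesis genes were the most abundant of the set. RPKM is the read count scaled to the deposited gene length and to the library total. LOX2, the lipoxygenase that starts the pathway in leaves, had 2359 RPKM from 353796 reads in WRKY75 RNAi and 1162 RPKM from 189354 reads in Col-0. This one gene took 0.930% of all reads in WRKY75 RNAi and 0.458% in Col-0. Its ratio of WRKY75 RNAi over Col-0 was 2.03-fold, with an interval of 2.02 to 2.04. AOC1, a chloroplast allene oxide cyclase, had 1064 RPKM from 55318 reads in WRKY75 RNAi and 529.9 RPKM from 29937 reads in Col-0. Its ratio was 2.01-fold, with an interval of 1.98 to 2.04. Both synthesis genes thus had nearly the same ratio, and their log2 ratios of 1.02 and 1.01 had overlapping intervals.

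AOC1 belongs to a family of 4 cyclase genes, 3 of which stand side by side on chromosome 3. The spliced AOC1 transcript was 84.2% identical to that of its neighbour AOC2 over 1081 aligned positions, 79.6% to AOC3 over 915 and 73.1% to AOC4 over 754. Of all stretches of 50 bases in the AOC1 transcript, 2.102% occurred unchanged in another transcript, that of AOC3, and of all stretches of 36 bases 4.33% did so, in AOC2 or AOC3. The sources used here state neither the read length nor how reads with several matches were treated, so reads from AOC2 or AOC3 within the AOC1 count are possible, and their part was not tested. AOC2 and AOC3 were not listed. AOC4 was listed as higher at a far lower level, with 28.7 RPKM from 1552 reads in WRKY75 RNAi and 12.9 RPKM from 758 reads in Col-0 (log2 ratio 1.15, interval 1.03 to 1.28), and none of its 50-base stretches occurred in another annotated transcript.

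The repressor genes were higher in WRKY75 RNAi at much lower levels. JAZ8 encodes an unusual JAZ protein that lacks the canonical degron, and so resists the COI1 route, and binds the corepressor TOPLESS directly. It had 135.0 RPKM from 3836 reads in WRKY75 RNAi and 61.2 RPKM from 1888 reads in Col-0. The ratio was 2.21-fold, with an interval of 2.09 to 2.33. JAZ10, a repressor known for its splice forms and for damping the jasmonate response, had 77.1 RPKM from 5649 reads in WRKY75 RNAi and 38.1 RPKM from 3029 reads in Col-0. The ratio was 2.03-fold, with an interval of 1.94 to 2.12. The log2 ratios of JAZ8 and JAZ10 differed by 0.12 and their intervals overlapped. A non-coding locus on the opposite strand, AT5G02045, overlaps the annotated JAZ10 gene by 71 bases, and without a stated strand setting its reads cannot be told apart from those of JAZ10 there.

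**Figure D1:**
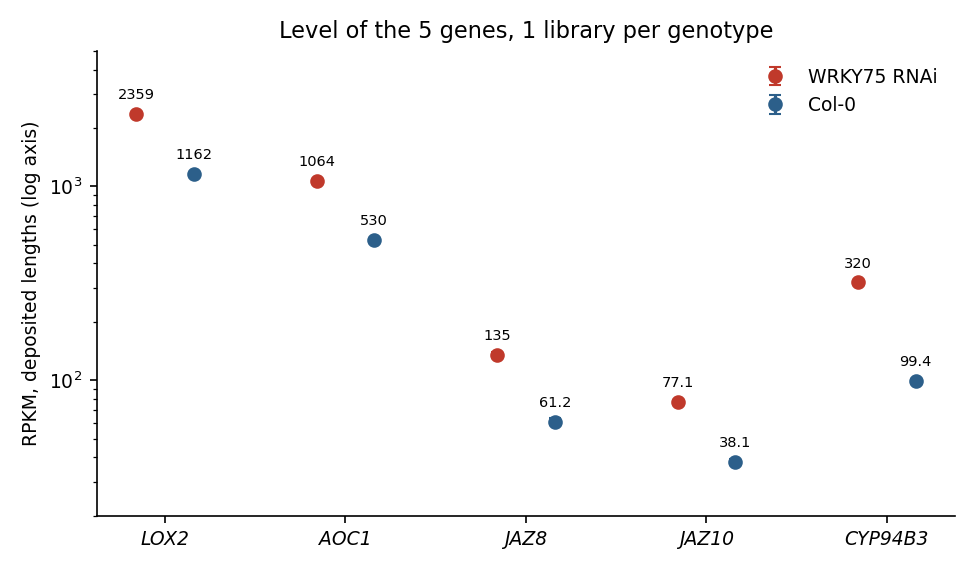
Level of each gene in RPKM on a log axis, with the WRKY75 RNAi library (red) left of the Col-0 library (blue); bars are exact Poisson 95% intervals and are mostly smaller than the points. LOX2 is highest in both libraries (2359 and 1162 RPKM) and JAZ10 lowest (77.1 and 38.1 RPKM), and the gap between the libraries is widest on this axis for CYP94B3 (320.5 and 99.4 RPKM).

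JAZ10 was the one gene of the 5 listed with several transcript models. Exon 3 shows a way in which they differ. In the RefSeq annotation, exon 3 of model 4 ends 55 bases before exon 3 of model 1, and the form made from model 4 is known to lack the Jas motif through which JAZ proteins meet COI1 and MYC2. The end of exon 3 in TAIR10.1, at chr5:4219600-4219684 on the plus strand, is shown with the 55 bases that model 4 leaves out in capitals.
JAZ10 exon 3: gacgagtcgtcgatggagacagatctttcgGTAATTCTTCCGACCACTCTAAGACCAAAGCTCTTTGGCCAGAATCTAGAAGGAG
All 4 listed models were higher in WRKY75 RNAi. Model 1 had the counts given above. Model 2 had 5370 reads in WRKY75 RNAi and 2604 in Col-0 (log2 ratio 1.16, interval 1.096 to 1.23). Model 3 had 4607 reads in WRKY75 RNAi and 2273 in Col-0 (1.14, interval 1.07 to 1.21). Model 4 had 3617 reads in WRKY75 RNAi and 1844 in Col-0 (1.09, interval 1.01 to 1.17). Model 1, with a log2 ratio of 1.02 (interval 0.95 to 1.08), was the lowest of the 4, and its interval did not overlap that of model 2. Model 4 is longer than model 1 by deposited length (1995 against 1926 bases) but shorter by spliced RefSeq length (1202 against 1384). Whether its count reflects the form that lacks the Jas motif is therefore unknown. The models share most of their exons and how reads were divided among them is not stated. These counts are therefore not independent, and a shift between splice forms was not tested. The model with the most reads thus gave JAZ10 its lowest ratio of any listed model.

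**Figure D2:**
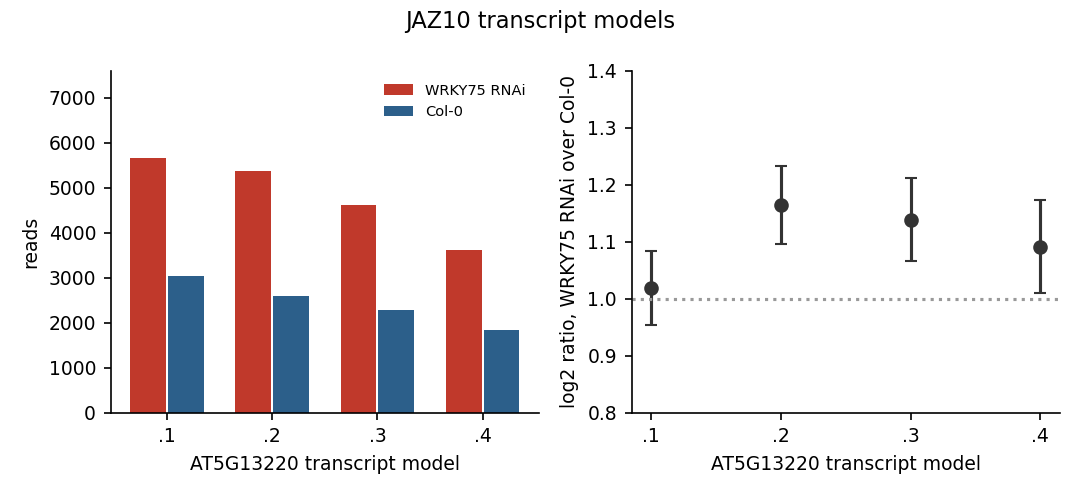
Left, reads of each listed JAZ10 transcript model (AT5G13220.1 to AT5G13220.4) in WRKY75 RNAi (red) and Col-0 (blue), on an axis from 0; right, their log2 ratio with exact 95% counting intervals, on an axis from 0.8 to 1.4. Model 1 has the most reads (5649 and 3029) and the lowest ratio (1.02), and the dotted line marks a log2 ratio of 1.

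The turnover gene had the largest ratio of the 5. CYP94B3 encodes a cytochrome P450 that hydroxylates JA-Ile and thereby lowers its activity. It had 320.5 RPKM from 20640 reads in WRKY75 RNAi and 99.4 RPKM from 6956 reads in Col-0. The ratio was 3.22-fold, with an interval of 3.14 to 3.31 (log2 ratio 1.69, interval 1.65 to 1.73). This interval lay above those of the other 4 genes. Over the 10 pairs of genes, intervals of the log2 ratio overlapped for 4 pairs, namely LOX2 with AOC1, LOX2 with JAZ10, AOC1 with JAZ10, and JAZ8 with JAZ10. JAZ8 lay above both synthesis genes by 0.12 (LOX2) and 0.14 (AOC1) without overlap. These differences concern counting error between 2 libraries and not variation between plants.

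By level per deposited length, the order was LOX2, AOC1, CYP94B3, JAZ8 and JAZ10 in both libraries. Deposited lengths exceed the spliced RefSeq length for LOX2 (3942 against 3002 bases), JAZ10 (1926 against 1384) and AOC1 (1367 against 1191), but not for JAZ8 (747 against 806) or CYP94B3 (1693 against 1922). Levels were therefore also scaled to spliced lengths. On that scale the order was unchanged. JAZ8 and JAZ10 came close, at 125.1 (interval 121.2 to 129.1) and 107.3 (104.5 to 110.1) RPKM on spliced length in WRKY75 RNAi, and at 56.7 (54.1 to 59.3) and 53.0 (51.1 to 54.9) in Col-0. In Col-0 the intervals of JAZ8 and JAZ10 overlapped, and no other neighbours in the order did so in either library.

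Abundance and ratio placed the 5 genes differently among the higher loci. By RPKM in WRKY75 RNAi, LOX2 ranked 1, AOC1 3, CYP94B3 15, JAZ8 45 and JAZ10 69 of 1231 loci, and the median locus had 1.64 RPKM. By log2 ratio among the 1150 higher loci with reads in both libraries, CYP94B3 ranked 465, JAZ8 944, LOX2 1113, JAZ10 1118 and AOC1 1143. The median log2 ratio was 1.02 for the 5 genes and 1.49 for the 1150 loci. AOC1 had the smallest ratio of the 5, and 7 higher loci had a smaller one. All 5 together took 1.15% of the reads in WRKY75 RNAi and 0.559% in Col-0, and without LOX2 the other 4 took 0.225% in WRKY75 RNAi and 0.101% in Col-0.

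**Figure D3:**
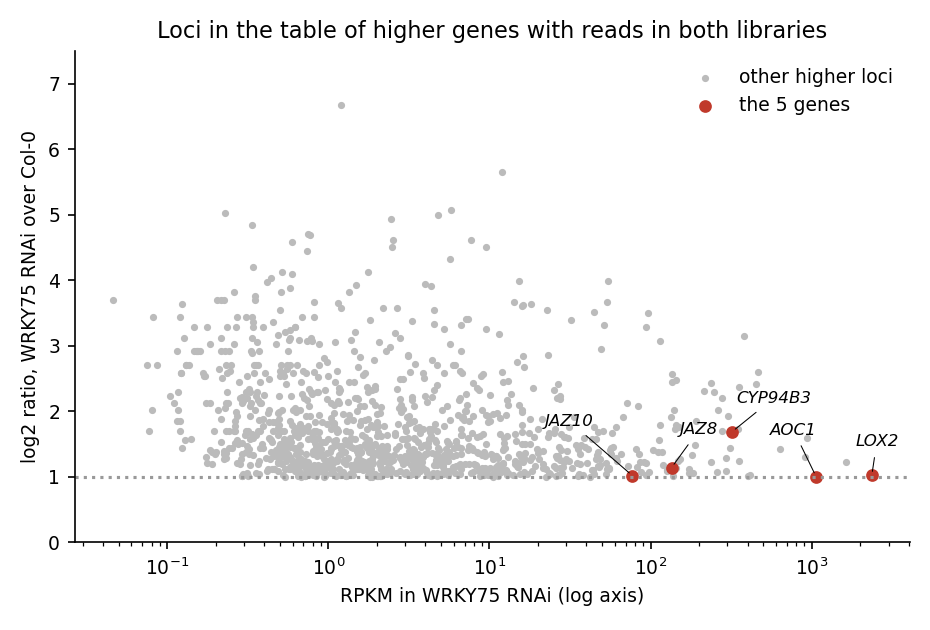
Log2 ratio of WRKY75 RNAi over Col-0 against RPKM in WRKY75 RNAi (log axis) for the 1150 higher loci with reads in both libraries, with the 5 genes in red. LOX2, AOC1, JAZ8 and JAZ10 lie close above the dotted line at a log2 ratio of 1 and far to the right of most loci; CYP94B3 lies at 1.69.

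Of the 5 genes, 3 lie close to a 2-fold difference, the limit at which the authors' list begins. The smallest deposited log2 ratio among higher transcript models was 1.001. AOC1 (1.01), JAZ10 (1.02) and LOX2 (1.02) stand just inside that limit, and genes just outside it are not analysed here. The lower limit of the interval was under a log2 ratio of 1 for AOC1 (0.99) and JAZ10 (0.95). Without scaling to library totals, which differ by 0.12 on the log2 scale, 3 of the 5 genes would fall under it, with 0.90 for LOX2, 0.89 for AOC1 and 0.90 for JAZ10. The authors also deposited a false discovery rate for each of the 5 genes, and it was largest for LOX2, the gene with the most reads. With 1 library per genotype these rates cannot cover variation between plants. No ratio or interval given here rests on them.

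The other genes of the pathway were taken from lists written by role, with earlier results of these data known. Of all 27550 protein-coding loci in the gene table, 4.17% were in the table of higher genes and 3.08% in that of lower genes. Of 31475 transcript models that the deposited false discovery rates imply were tested, 4.32% were listed as higher and 3.17% as lower. Counts that include the 5 genes are fixed in part by their choice, so members and other genes are separated here. A gene called not listed may still differ by less than the authors' limits. The lists do not cover every gene of a role or every relative of their genes. Each count therefore depends on the genes included and is a description.

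In the synthesis list 3 of 24 genes were higher and 0 lower. Among its 22 genes other than LOX2 and AOC1, only AOC4 was listed (4.55%, near the 4.17% of all protein-coding loci). Relatives of the synthesis genes outside the list were not counted, so this share is that of the genes included. The other lipoxygenase genes of the pathway (LOX3, LOX4 and LOX6), the allene oxide synthase gene AOS, the reductase gene OPR3, the oxidase gene ACX1 and the conjugating enzyme gene JAR1 were not listed. Among the 13 repressor genes other than JAZ8 and JAZ10, 0 were higher, against 4.17% of all protein-coding loci, and 0 were lower. These are 11 further JAZ genes, JAZ1 and JAZ7 among them, the adaptor gene NINJA and the corepressor gene TPL. In the list of reception and transcription, 0 of 15 genes were higher and 1 was lower, against 4.17% and 3.08% of all protein-coding loci. These counts hold for the 15 genes included, and relatives outside the list were not counted. COI1, MYC2, MYC3 and MYC4 were not listed, and the 1 lower gene was ERF1, an activator of the branch shared with ethylene (13 reads in WRKY75 RNAi and 68 in Col-0; log2 ratio -2.27, interval -3.25 to -1.398).

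The turnover list held the most listed genes of the 3 steps, 4 of 12 as higher and 0 as lower. Among the 11 genes other than CYP94B3, 3 were higher (27.3%, against 4.17% of all protein-coding loci). Because earlier results of these data were known when the list was written, these counts are a description. CYP94B1, the close relative of CYP94B3 that also hydroxylates JA-Ile, had 112.8 RPKM from 7202 reads in WRKY75 RNAi and 38.3 RPKM from 2657 reads in Col-0 (log2 ratio 1.56, interval 1.49 to 1.62). JOX3, also named JRG21, a dioxygenase that hydroxylates jasmonic acid before conjugation, had 94.1 RPKM from 9264 reads in WRKY75 RNAi and 40.6 RPKM from 4346 reads in Col-0 (1.21, interval 1.16 to 1.26). ST2A, a sulfotransferase that acts on hydroxyjasmonate, had 353.7 RPKM from 19217 reads in WRKY75 RNAi and 68.2 RPKM from 4027 reads in Col-0, which is 5.18-fold (2.37, interval 2.33 to 2.42). ST2A thus had a larger ratio than CYP94B3, and the intervals did not overlap. Its neighbour and relative ST2B was not listed and shared 0.231% of the 50-base stretches of ST2A. The 4 turnover genes together took 0.148% of reads in WRKY75 RNAi and 0.0435% in Col-0. The deposited length exceeded the spliced length for JOX3 (2589 against 1473 bases). It did not for CYP94B1 (1678 against 1836) or ST2A (1428 against 1779), so RPKM values of these genes are not on an equal footing. CYP94C1, the oxidase gene that acts after CYP94B3, and the hydrolase genes IAR3 and ILL6 were not listed.

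Genes known as outputs of jasmonate signalling were listed as higher in 8 of 12 cases and as lower in 1. The 8 were THI2.1, TPS03, BSMT1, VSP1, VSP2, CORI3, CLH1 and TPS04. Of all protein-coding loci, 4.17% were higher and 3.08% lower. Several of the 8 had been seen as higher in these data when the list was written. The count is therefore a description and cannot be weighed against those shares. CLH1, a chlorophyllase gene induced by the jasmonate mimic coronatine, had 632.0 RPKM in WRKY75 RNAi and 235.5 RPKM in Col-0 (log2 ratio 1.42, interval 1.396 to 1.45). TPS04, which makes the volatile precursor geranyllinalool, had 183.5 RPKM in WRKY75 RNAi and 88.4 RPKM in Col-0 (1.05, interval 1.03 to 1.08). The other 6 had log2 ratios of 2.31 (CORI3) to 5.64 (THI2.1), larger than those of all 5 genes described here. The 1 lower gene was the defensin gene PDF1.2B (-1.13), and TAT3, NATA1 and PDF1.2A were not listed.

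**Figure D4:**
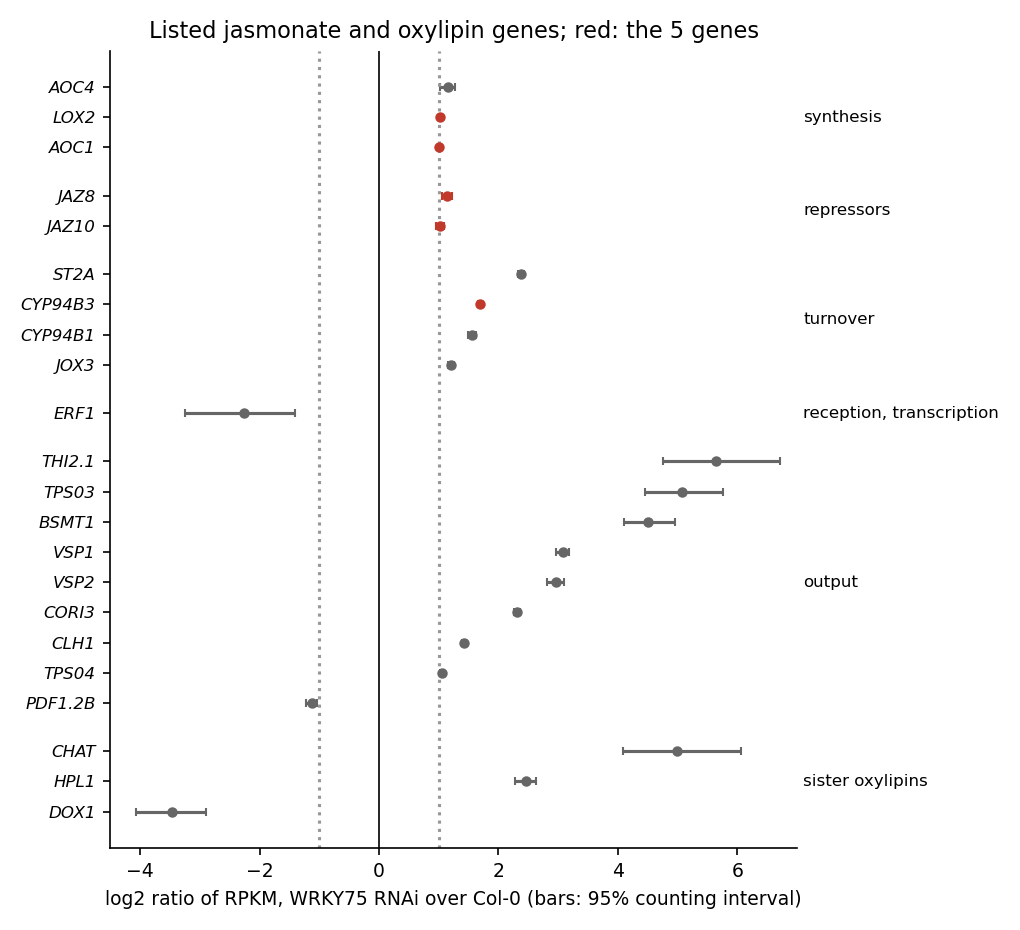
Log2 ratio of WRKY75 RNAi over Col-0 for every listed gene of the jasmonate lists and of related oxylipin branches, with exact 95% counting intervals; the 5 genes are red, dotted lines mark log2 ratios of -1 and 1, and genes not listed have no value. Synthesis and repressor genes sit between 1.01 and 1.15, turnover genes between 1.21 and 2.37, and output genes between -1.13 and 5.64.

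JAZ10 and CYP94B3 are also known as genes that wounding induces within minutes, so genes that respond to touch, wounding and handling are given beside them. Of 12 such genes 6 were listed as lower, against 3.08% of all protein-coding loci, and 0 as higher. This list too was written with earlier results of these data known, so the count is a description. It leaves out relatives of its genes, so the 0 as higher applies to these 12 genes alone. The 6 were SZF1, SZF2, ERF105, TCH3, CBF1 and CBF2, with log2 ratios of -1.96 to -1.02, and the other 6 have no value here. The summed level of the 6 listed genes was 364.0 RPKM in WRKY75 RNAi and 875.4 RPKM in Col-0, a direction that their listing as lower fixes. The part of handling in the results was not tested. Annotated genes on the opposite strand overlap TCH3, ERF105, BSMT1 and THI2.1, by 24 bases (THI2.1) to 965 bases (ERF105), and reads there cannot be assigned. Markers of leaf mesophyll (4 genes), flower (4) and root (3) were not listed, so the tissue label could not be checked by level. Of 3 trichome markers GL3 was higher on few reads, 63 in WRKY75 RNAi and 22 in Col-0 (0.484 and 0.155 RPKM; log2 ratio 1.64, interval 0.92 to 2.41), and GL1 and GL2 were not listed. Of all protein-coding loci 4.17% were higher, and 1 of 3 markers is too few to set against that share. The part of trichomes in the results was not tested.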

How the data were processed

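Per the file headers, the deposited gene tables give for each transcript model a raw read count and an RPKM in each library, a log2 ratio (RNAi over Col-0), a p-value and its adjusted form, the false discovery rate. They hold only models that the authors selected as higher (1360) or lower (998). Bowtie and TAIR10 are named in the submitters' processing notes; the sources used here do not give the aligner's version, the counter, strandedness, filters or the authors' test. An ontology table of the lower genes was not used.

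Library totals are the medians of reads over the product of RPKM and length. Ratios were recomputed from RPKM, and exact intervals come from the reads with scipy 1.17.1. The interval was checked on simulated independent Poisson counts, the model that it assumes. That check covers the calculation and not variation between plants. No test of genotype was possible, so the planned design holds none. The number of tested models was inferred from deposited p-values and false discovery rates (206 values). The row with no gene identifier (0.0384% of WRKY75 RNAi and 0.103% of Col-0 reads) was left out. Of 2159 loci, 2147 matched the TAIR10.1 gene table; that assembly's annotation and sequence supplied promoters, exons and shared stretches, and no coordinates were converted.

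Members and all lists were chosen with earlier results of these data known. Named genes are the 5, every listed member of a list, WRKY75, and the 2 listed loci nearest to each of the 5 in level. Genes named as not listed were chosen afterwards. Other settings tried were no library scaling, pseudocounts, other transcript models, halved reads, a stricter threshold and a minimum of 10 reads.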

Additional observations from a re-analysis of the deposited data

How the results depend on the processing

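The log2 ratios of the 5 genes were positive under every setting tried, but the choice of genes from the table of higher loci fixes that direction. Without library scaling they were 0.90 for LOX2, 0.89 for AOC1, 1.02 for JAZ8, 0.90 for JAZ10 and 1.57 for CYP94B3, each lower by the log2 difference of the library totals. For JAZ10, the sum over its 4 listed models gave 1.1004, and, chosen after seeing the data, models 2, 3 and 4 gave 1.16, 1.14 and 1.09. A pseudocount of 1 RPKM gave JAZ10 0.9999, just under the 2-fold limit. Halving the reads of both libraries leaves each ratio unchanged by design, apart from rounding. It therefore only widened the intervals and was no check of the ratios. At a log2 ratio of at least 1.5 the higher loci numbered 648, the synthesis list 0, the repressor list 0 and the turnover list 3. Without scaling, 1 synthesis gene, 1 repressor gene and 4 turnover genes had a log2 ratio of at least 1. A minimum of 10 reads left the counts of higher genes in the 6 lists recounted (all but the sister oxylipin list) as they were. Those genes had 460 reads (THI2.1) or more in WRKY75 RNAi, so this minimum could not change their counts. It gave 1190 higher loci in place of 1231, and counts of lower genes were not recomputed. Levels scaled to spliced length kept the order of the 5 genes. No paired analysis was possible because there is 1 library per genotype, and for the same reason no library could be left out.

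Depth limits little for the 5 genes, which had 1888 to 353796 reads per library. The spread between plants is unknown.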

Other observations

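Branches of oxylipin metabolism that share their first substrate with jasmonate were listed in both directions. Of 5 such genes 2 were higher and 1 was lower, against 4.17% and 3.08% of all protein-coding loci. The list was written with earlier results of these data known, so the count is a description. Hydroperoxide lyases draw lipoxygenase products into green leaf volatiles. HPL1, a gene of the hydroperoxide lyase family, had 13.1 RPKM from 1582 reads in WRKY75 RNAi and 2.38 RPKM from 313 reads in Col-0 (log2 ratio 2.46, interval 2.28 to 2.64). Whether HPL1 makes a working enzyme in these Col-0 plants was not tested. CHAT, which acetylates a leaf alcohol of the green leaf volatile branch, had 293 reads in WRKY75 RNAi and 10 in Col-0 (4.99, interval 4.09 to 6.07). DOX1, an alpha-dioxygenase gene that acts on fatty acids by another route, was lower, with 28 reads in WRKY75 RNAi and 335 in Col-0 (-3.46, interval -4.07 to -2.90). The lipoxygenase genes LOX1 and LOX5 were not listed.

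Over the 2 libraries, and among listed loci with reads in both, the loci nearest to each gene in log2 RPKM (Euclidean distance) were KIN2 (0.93) and GSTF2 (1.52) for LOX2, and DHAR1 (0.57) and KIN2 (0.72) for AOC1. They were AT4G18280 (0.07) and RCI2A (0.11) for JAZ8, COR15B (0.10) and GCL1 (0.17) for JAZ10, and ERD9 (0.13) and RAP2.6 (0.21) for CYP94B3. GSTF2 is itself listed as lower, with 1042 RPKM in WRKY75 RNAi against 2252 RPKM in Col-0, and its distance from LOX2 was the largest of the 10.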
